A study of Mus musculus with 12 samples.

Results

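The transcriptome shared by LSK cells in mobilized blood, whichever mobilizer had been given, was compared with that of LSK cells in bone marrow. The comparison set the mean of 3 blood groups (9 arrays) against 3 marrow arrays, with the slide as a block, and so used 12 of the 12 arrays of the series. It centred on changes that had 1 direction in every treatment on every slide. LSK cells carry Sca-1 and Kit and lack markers of mature lineages, a fraction rich in blood-forming stem and progenitor cells. Of 23795 genes tested, 534 passed at an adjusted p under 0.05 and moved in 1 direction in all 9 blood-against-marrow differences taken within slides.

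All mice were male DBA2/J, and their ages were not given in the sources used here. The marrow group received PBS. The blood groups received G-CSF for 5 days in 9 injections, AMD3100 for 1 hour, or CWHM-823 together with tGro-b, for which no time was given. The treatment protocol in the labels also names other regimens, which none of the 12 samples carries. AMD3100 is an antagonist of the chemokine receptor CXCR4, CWHM-823 is a VLA-4 inhibitor and tGro-b is a truncated CXCR2 agonist. Cells from either tissue were depleted of red cells, enriched for Kit and flow sorted, and their RNA was amplified from a small input before labelling. Since blood cells all came from treated mice and marrow cells from mice given PBS, tissue and treatment cannot be told apart in any difference below. Whether replicate arrays stem from different mice is not stated in the labels, so the p-values reflect the spread among these 12 samples alone, which may be technical.

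In marrow, stem and progenitor cells are held by CXCL12 acting on CXCR4, by the integrin VLA-4 on VCAM-1, and by contact with stromal and endothelial cells. Mobilizers loosen these holds and cells pass into the circulation, where adhesion and chemokine contacts are lost and shear and serum factors are met. Immediate early genes, such as those of the EGR, FOS, NR4A and KLF families, are switched on in many cell types within minutes of a stimulus and encode mostly transcription factors. Genes of mitosis are transcribed in cells approaching division and are low in resting cells.

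The 8 genes listed for the fraction, Kit, Ly6a (Sca-1), Cd34, Flt3, Gata2, Meis1, Mecom and Hlf, were above background on all 12 arrays. Their summed signal, in multiples of each array's 75th percentile, ran from 34.6 to 52.4 in marrow and from 28.1 to 47 in blood. Kit itself was at 3.63, 3.37 and 3.43 on the marrow arrays and between 3.05 and 3.64 on the blood arrays (levels here and below are log2 signal relative to the 75th percentile of the array), a difference of -0.15 ± 0.12 (adjusted p = 0.572; ± is the standard error of the fit). Probes above background made up 70.76 to 83.41% of each array. Marrow array 3 stood apart in neutrophil genes: the summed signal of 10 measured neutrophil markers was 30.8 there, and reached no more than 5.05 on any blood array. Summed red cell markers (8 measured) ran from 1.93 to 3.3 in marrow, 16 to 17.4 after G-CSF, 3.04 to 4.71 after AMD3100 and 22.1 to 38.6 after CWHM-823 with tGro-b. Summed markers of T cells, NK cells and endothelial or stromal cells overlapped between marrow and each blood group. Monocyte markers were 29.4 to 37.1 in marrow and 38.9 to 39.6 after AMD3100, and dendritic cell markers 51 to 58.9 in marrow and 33.7 to 43.1 after G-CSF. Each marker list had more than 1 marker above background on every array, so transcripts listed for other cell types were detected in all groups. Of the 8 genes listed for the LSK fraction, Hlf (-1.01) and Mecom (-0.81, adjusted p = 0.0288, lower in 8 of 9) fell. Only Kit and Ly6a of that list encode proteins by which LSK cells are defined.

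**Figure D1:**
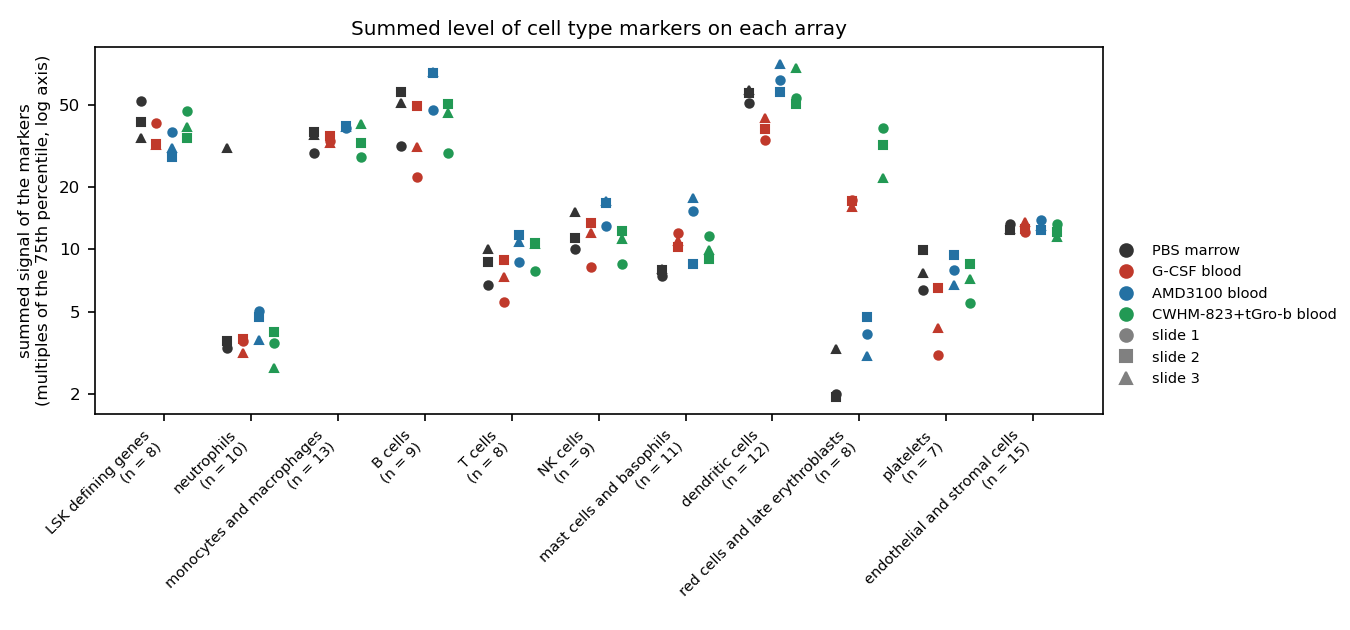
Summed signal of each marker list (vertical axis, multiples of the array's 75th percentile, log axis) on each of the 12 arrays; colour gives the group, the symbol the slide, and n the measured markers. Marrow array 3 is high in neutrophil markers (30.8), and red cell markers are higher in the G-CSF and CWHM-823+tGro-b groups than in marrow.

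Promoters are shown for 6 of the 30 genes with the largest shared difference, since these genes moved together in 9 of 9 differences. The sequences are the 250 bases before the annotated start, from RefSeq on GRCm38.p6; 25 of the 30 genes had an entry there. Capitals mark matches on either strand to letters searched in every promoter: TGACG (the core of the cyclic AMP response element, CRE, bound by CREB and ATF proteins), GCGNGGGCG (the EGR site), CCAAT (bound by NF-Y), TTTGAA (the cell cycle homology region, CHR) and the CArG box (bound by SRF). The first 3 are of genes higher in blood, the transcription factors Klf2, Nr4a1 and Atf3.

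Klf2 (chr8:72318812-72319061, plus strand): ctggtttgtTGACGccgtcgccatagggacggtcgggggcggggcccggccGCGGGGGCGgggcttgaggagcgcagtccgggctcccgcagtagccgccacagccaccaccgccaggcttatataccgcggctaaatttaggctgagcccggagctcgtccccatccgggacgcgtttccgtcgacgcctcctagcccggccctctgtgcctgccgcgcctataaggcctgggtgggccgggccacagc
Nr4a1 (chr15:101266596-101266845, plus strand): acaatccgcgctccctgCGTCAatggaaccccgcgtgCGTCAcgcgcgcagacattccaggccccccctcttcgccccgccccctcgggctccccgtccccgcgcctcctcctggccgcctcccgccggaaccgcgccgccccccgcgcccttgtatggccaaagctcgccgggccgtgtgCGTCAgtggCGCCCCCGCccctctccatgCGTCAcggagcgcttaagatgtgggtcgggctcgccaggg
Atf3 (chr1:191183334-191183583, minus strand): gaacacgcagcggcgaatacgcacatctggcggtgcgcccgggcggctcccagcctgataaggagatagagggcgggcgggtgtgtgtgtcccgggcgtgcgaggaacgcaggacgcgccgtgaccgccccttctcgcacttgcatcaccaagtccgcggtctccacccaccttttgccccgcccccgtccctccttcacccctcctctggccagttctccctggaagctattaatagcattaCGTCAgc

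The next are of genes lower in blood: Hoxa3, a homeobox transcription factor, and Fbxo5 and Ccnf, which restrain or steer the ubiquitin ligases of the cell cycle.

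Hoxa3 (chr6:52213068-52213317, minus strand): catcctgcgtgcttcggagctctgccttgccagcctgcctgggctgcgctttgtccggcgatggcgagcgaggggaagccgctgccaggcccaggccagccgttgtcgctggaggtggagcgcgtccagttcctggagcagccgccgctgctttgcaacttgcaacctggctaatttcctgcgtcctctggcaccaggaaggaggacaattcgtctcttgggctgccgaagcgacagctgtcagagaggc
Fbxo5 (chr10:5805466-5805715, minus strand): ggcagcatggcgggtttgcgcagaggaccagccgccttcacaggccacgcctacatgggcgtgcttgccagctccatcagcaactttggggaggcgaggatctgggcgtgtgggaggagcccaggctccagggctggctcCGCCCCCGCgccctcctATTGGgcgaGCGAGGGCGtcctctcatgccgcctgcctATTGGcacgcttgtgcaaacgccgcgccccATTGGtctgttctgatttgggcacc
Ccnf (chr17:24251410-24251659, minus strand): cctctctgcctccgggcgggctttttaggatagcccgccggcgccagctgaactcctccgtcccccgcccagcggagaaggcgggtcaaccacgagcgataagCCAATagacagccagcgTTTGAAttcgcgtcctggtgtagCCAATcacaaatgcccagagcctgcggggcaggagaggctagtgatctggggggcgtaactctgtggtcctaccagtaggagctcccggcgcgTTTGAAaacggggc

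The promoter of Nr4a1 held 4 matches to TGACG and 1 EGR site, that of Klf2 1 of each, and that of Atf3 1 match to TGACG. Ccnf had 2 CCAAT boxes and 2 CHR matches, Fbxo5 3 CCAAT boxes and 2 EGR sites, and Hoxa3 none of these letters in this window. Among genes higher in all 9 differences and with a promoter entry (151), 29.1% held TGACG and 14.6% the EGR site, against 22.6 and 6.91% of the 13822 genes tested that had one. Among the 197 lower genes with an entry, 45.7% held CCAAT and 18.3% TTTGAA, against 35.8 and 12.6% of the genes tested. In the list of immediate early genes, 57.1% of 28 promoters held TGACG and 39.3% the EGR site. In the list of mitosis genes, 81.2% of 32 promoters held CCAAT and 34.4% TTTGAA. Over all 27025 promoters of that length the shares were 17.9% for TGACG, 4.65% for the EGR site, 34.5% for CCAAT, 16.3% for TTTGAA and 1.4% for the CArG box. The CArG box was found in 3.31% of the higher and 2.54% of the lower genes. These shares were not tested, and a match is no evidence of binding.

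Blood LSK cells were led on the higher side by immediate early genes, with Egr3 47.6-fold above marrow, and genes of mitosis stood lower. In the mean of the blood groups, 317 genes were higher (1.33% of the genes tested) and 352 lower (1.48%). Of these, 245 higher (1.03%) and 289 lower genes (1.21%) had 1 direction in all 9 within-slide differences. Regardless of p, 640 genes (2.69%) were higher and 962 (4.04%) lower in 9 of 9. The 9 differences share 3 marrow arrays, so this agreement in direction is a description. The median difference over all genes tested was -0.04 on the log2 scale. Differences of at least 2 on that scale were found for 55 of the higher genes and differences of -2 or less for 17 of the lower ones. These counts are not free of the filter, which kept a probe above background on every array of any 1 group. With 3 blood groups and 1 marrow group, genes undetected in marrow could enter more easily. Of the 534 shared genes, 420 were above background on all 12 arrays, and the others include values near the floor. Every blood array exceeded every marrow array for 148 of the 245 higher genes, and lay under every marrow array for 171 of the 289 lower ones; over all genes tested these were 190 (0.798%) and 306 (1.29%).

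The balance of higher and lower genes moved with the scaling and the fit. With the arrays scaled to their median, 223 higher and 158 lower genes passed in 1 direction, and increases made up 61.2% of all calls in place of 47.4%. Without the slide as a block, 115 and 49 passed. The lower genes rested on marrow arrays 1 and 2: leaving out array 1 gave 116 higher and 43 lower, leaving out array 2 gave 145 and 46, and leaving out array 3, the one with neutrophil transcripts, gave 162 and 230. Lower genes also numbered 152 and 147 without CWHM-823+tGro-b arrays 1 and 2, and 160, 183 and 186 without G-CSF arrays 1, 2 and 3.

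**Figure D2:**
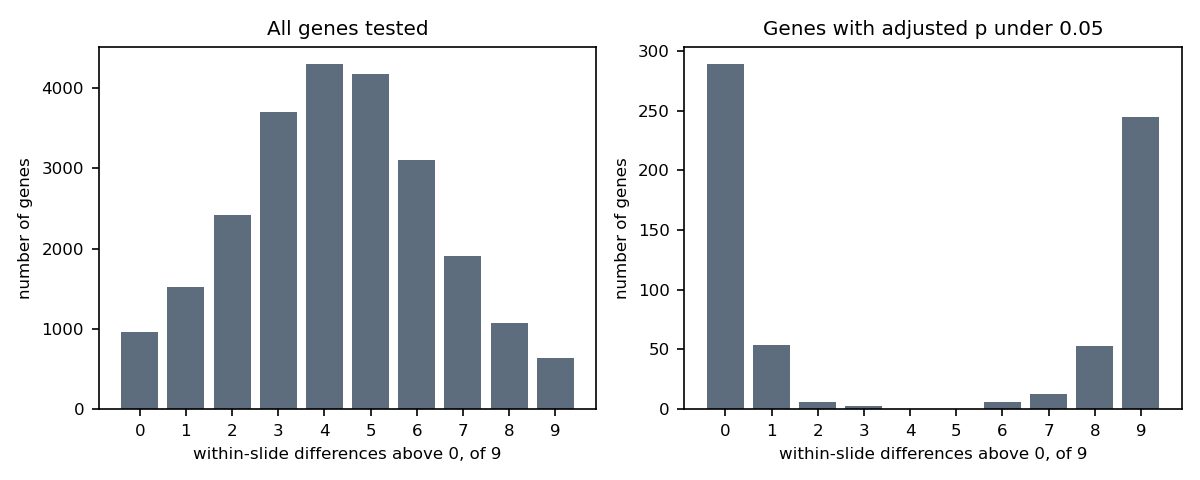
Number of genes (vertical axis) by how many of the 9 within-slide differences were above 0 (horizontal axis), for all 23795 genes tested and for the 669 with an adjusted p under 0.05. The passed genes lie at the ends, 289 at 0 and 245 at 9 of 9, and 135 had mixed directions.

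Among immediate early genes, Egr3, a zinc finger transcription factor of the EGR family, differed most. It stood at -1.05, -0.89 and -2.12 on the marrow arrays and between 2.65 and 5.43 on the blood arrays, with a median of 4.48. The groups did not overlap, and the difference was 5.57 ± 0.32 (adjusted p = 5.65e-05). Its probe lies at chr14:70479222-70479281 in mm9, the assembly of the array's annotation, and its place among exons was not analysed here. Klf2, a factor that keeps T cells quiescent and sets their trafficking receptors, was at -1.97, -1.47 and -1.91 in marrow and at 1.46 to 3.63 in blood (median 2.54; probe at chr8:74845137-74845196). It was 22-fold higher (4.46 ± 0.28, adjusted p = 0.000113). Each blood array lay more than 2 log2 units above each marrow array for this gene. Nr4a1, an orphan nuclear receptor, was at -0.17, -0.3 and -1.55 in marrow and at 2.48 to 4.33 in blood (median 3.22), 16.4-fold higher (4.03 ± 0.28, adjusted p = 0.00015). Atf3, a stress-induced bZIP factor, was at -2.42, -2.45 and -3.08 in marrow and at -0.41 to 2.47 in blood (median 1.01), 14.9-fold higher (3.9 ± 0.32, adjusted p = 0.000421). For both, the lowest blood array was above the highest marrow array. The probe of Nr4a1 lies at chr15:101105071-101105130 and that of Atf3 at chr1:192994547-192994606.

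Of 36 measured immediate early genes, 22 rose in 9 of 9 differences, 1 more passed without agreeing on every slide, 0 fell and 13 did not pass. Their median difference was 1.62, against -0.04 for all genes. The KLF members Klf6 (2.62 ± 0.16) and Klf4 (2.65 ± 0.19), the FOS members Fosb (2.4 ± 0.12), Fosl1 (1.99) and Fos (1.63), and the EGR members Egr2 and Egr1 (1.61) were among the risen genes. So were Nr4a2 (2.2), Junb (2.01) and Ier3 (1.66). Egr2 was above background on 1 of 3 marrow arrays, so its difference is not given, and Fosl1 on 2 of 3. Maff also passed but was above background on 0 marrow and 5 blood arrays, so no fold is given. Cd69, a lectin that binds and removes the egress receptor S1P1 from the surface, rose 18.1-fold, with 2 of 3 marrow arrays above background. Jun (-0.08, adjusted p = 0.923), Ier2 (0.8, adjusted p = 0.162), Ier5 (-0.4, adjusted p = 0.44), Rgs1 (0.04, adjusted p = 0.967) and Myc (0.47, adjusted p = 0.0684) did not pass. Among the AP-1 members, Fosb and Junb therefore passed and Jun did not. The count of 22 ran from 16 to 24 over the 26 alternatives.

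**Figure D3:**
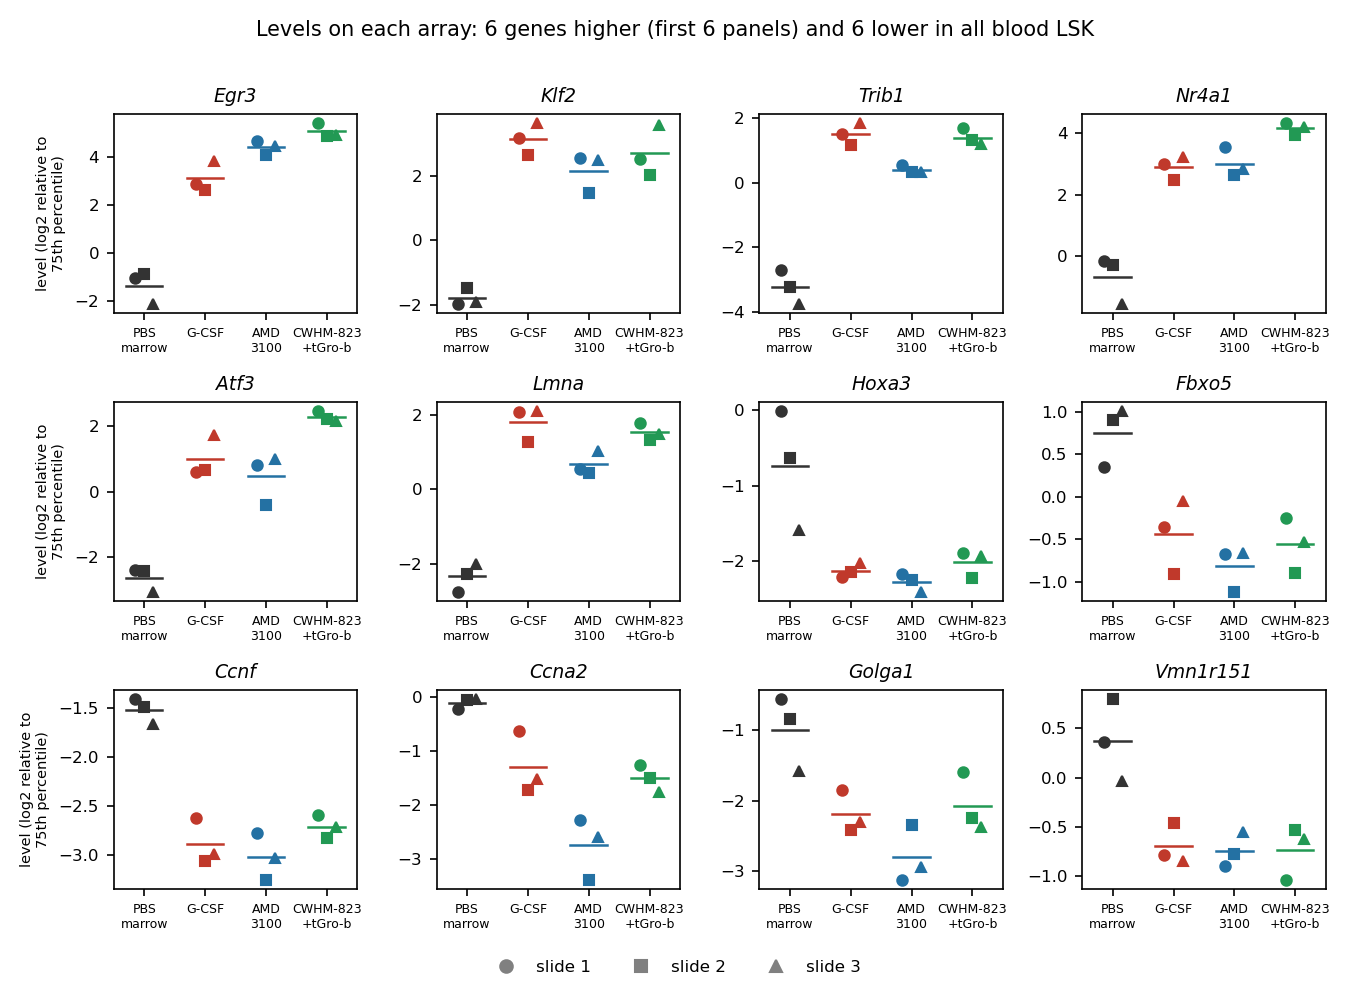
Level of 12 genes on each array (vertical axes, log2 signal relative to the array's 75th percentile; scales differ between panels) by group (horizontal axis), with the slide as symbol and the group mean as a bar. The first 6 panels are genes higher in blood, the last 6 genes lower in blood, and no blood array overlaps the marrow arrays in any of them.

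Some members were not detected in marrow at all, which gives a lower bound for the change. For these the marrow value of each array was set to the lowest signal well above background there, or to the probe's own if that was higher. Csrnp1, a nuclear protein induced by AXIN1, was above background on 9 blood arrays and 0 marrow arrays. It was at least 6.79-fold higher (levels -2.8 to -0.27 in blood). Its marrow signals were not above background, so no p-value is given for it. Nr4a3, the third NR4A receptor, was at least 4.07-fold higher on the same reading. Its G-CSF arrays were at -4.05, -4.38 and -4.29, below its AMD3100 (-2.95 to -1.88) and CWHM-823+tGro-b arrays (0.07 to 0.51). The bound is for the mean of the 9 blood arrays and gives none for G-CSF alone. By the same rule Gzmb, the granule protease granzyme B, was at least 9.96-fold higher, the annotated thyrotropin beta gene Tshb 4.93-fold, Tppp, a tubulin-binding protein, 4.46-fold, and Plaur, the urokinase receptor, 4.36-fold. Each of the 9 blood arrays detected these probes.

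The list of feedback inhibitors of growth factor signalling held 3 of the shared increases, Trib1, Spry1 and Dusp5. Of these, Trib1 was counted in the list but is described here by another role. Trib1, a pseudokinase that brings C/EBP alpha to its ubiquitin ligase, was at -2.71, -3.24 and -3.76 in marrow and at 0.32 to 1.84 in blood (median 1.19; probe at chr15:59487475-59487534). It was 20.1-fold higher (4.33 ± 0.2, adjusted p = 1.93e-05), and a second probe of the gene gave 4.94. Spry1, an inhibitor of receptor tyrosine kinase signalling, was at -3.82, -3.52 and -4.04 in marrow, with 2 of 3 arrays above background, and at -1.61 to 1.2 in blood (3.29 ± 0.13, adjusted p = 1.09e-05). Dusp5, a nuclear phosphatase of ERK, rose by 2.17 ± 0.17 (adjusted p = 0.000343). These 3 were the members of the MAPK feedback list (16 measured) that passed, with a list median of 0.41; Dusp6 (0.64, adjusted p = 0.0618), Dusp1 (0.51, adjusted p = 0.227) and Spry2 (-0.26, adjusted p = 0.455) did not pass. Rasgef1b, an exchange factor for Ras-family GTPases, was at 0.25, -0.55 and -0.09 in marrow and at 1.9 to 4.21 in blood, 8.05-fold higher (3.01 ± 0.13, adjusted p = 1.09e-05).

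Socs3, the feedback inhibitor of cytokine signalling through STAT3, was at -0.3, -0.56 and -0.64 in marrow and at 1.79 to 4.08 in blood (median 2.79). It was 9.99-fold higher (3.32 ± 0.25, adjusted p = 0.000241) and rose after AMD3100 (2.48) and CWHM-823 with tGro-b (3.06) as well as after G-CSF (4.42). Of 19 STAT and SOCS genes, 4 passed higher, 2 of them in 9 of 9, and the median was 0.48; the 2 were 7 without the AMD3100 group and 1 with normexp, with the authors' table and over probes above background on all 12 arrays. Stat3 (0.48, adjusted p = 0.0878) and Socs1 (0.08, adjusted p = 0.859) did not pass. Of 25 NF-kB targets and inhibitors, 7 passed higher, 6 in 9 of 9, and 0 passed lower (median 0.55). Tnfaip3 (2.64 ± 0.32, with 2 of 3 marrow arrays above background), Nfkbid (2.26 ± 0.15) and Nfkbia (1.25 ± 0.16), which all restrain NF-kB, rose, as did the cytokine genes Tnf (2.14 ± 0.26) and Ccl4 (1.73 ± 0.34). Il1b (-0.11, adjusted p = 0.672) and Icam1 (0.29, adjusted p = 0.502) did not pass. The count of 6 was 4 without the slide block, without CWHM-823+tGro-b array 1, G-CSF array 1, G-CSF array 2 or marrow array 2.

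Genes of the nuclear lamina, membrane cortex and intermediate filaments formed the next group. Lmna, which encodes lamins A and C, was at -2.75, -2.26 and -2 in marrow and at 0.45 to 2.1 in blood (median 1.33; probe at chr3:88287262-88287321). It was 12.8-fold higher (3.67 ± 0.2, adjusted p = 4.87e-05). The other lamins did not pass: Lmnb1 gave -0.43 (adjusted p = 0.227) and Lmnb2 0.15 (adjusted p = 0.633). Ahnak, a giant scaffold under the plasma membrane, was at 0.26, -0.64 and -0.82 in marrow and at 2.15 to 3.14 in blood, 8.25-fold higher (3.04 ± 0.19, adjusted p = 9.52e-05), and 4 of its 4 probes rose, by 1.2 to 3.44. S100a10, its partner in the annexin complex, rose from 0.03 on average to 2.06 to 3.78 (2.76 ± 0.18, adjusted p = 0.000116), and Anxa2, the annexin of that complex, by 1.69 ± 0.21 (adjusted p = 0.00469). Ahnak, S100a10 and Anxa2 act together at the plasma membrane. Vim, the intermediate filament vimentin, was at 3.05, 3.09 and 3.53 in marrow and at 4.44 to 5.7 in blood (1.84 ± 0.13, adjusted p = 0.00015). Of 33 genes of cell guidance and the cytoskeleton, 8 rose and 1 fell in 9 of 9, with a median of 0.21. Actb (0.21, adjusted p = 0.472), Rhoa (0.32, adjusted p = 0.257) and Rac1 (0.17, adjusted p = 0.623) did not pass. The member that fell was Slit2, a guidance ligand of Robo receptors, from -0.35, -0.7 and -0.55 in marrow to between -3.15 and -0.6 in blood (-1.39 ± 0.19, adjusted p = 0.00726), and it did not pass without marrow array 1 or without the G-CSF group. With median scaling no member was lower in 9 of 9 and passed (list count 0). Without the G-CSF group, the 8 were 5.

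Receptors and ligands that hold or guide the cells changed unevenly. Adgre5, the adhesion receptor CD97 that binds CD55, was at 1.11, 0.57 and 1.04 in marrow and at 2.99 to 4.21 in blood. It was 6.96-fold higher (2.8 ± 0.14, adjusted p = 2.89e-05), with much the same rise after G-CSF (3), AMD3100 (2.49) and CWHM-823 with tGro-b (2.9). S1pr1, an egress receptor and a target of KLF2, did not differ beyond its error in the mean of the blood groups (0.06 ± 0.14, adjusted p = 0.868). By treatment S1pr1 gave 0.69 after G-CSF (adjusted p = 0.0288), -0.28 after AMD3100 and -0.24 after CWHM-823 with tGro-b. S1pr4 fell by 0.79 on the log2 scale (adjusted p = 0.0149), and did not pass without any 1 of the 3 marrow arrays. Of 15 genes of that egress list, 3 rose and 1 fell in 9 of 9, with a median of 0.06. The targets of the mobilizers themselves did not pass: Cxcr4 was at 4.15, 3.69 and 3.78 in marrow and at 2.95 to 3.89 in blood (-0.4 ± 0.17, adjusted p = 0.255, lower in 8 of 9). Cxcr2 gave 0.22 ± 0.22 (adjusted p = 0.665), Itga4, the alpha chain of VLA-4, -0.07 ± 0.15 (adjusted p = 0.859), and Itgb1, its beta chain, 0.76 ± 0.2 (adjusted p = 0.0861, higher in 8 of 9). Itgb1 passed in the comparison of G-CSF with marrow (1.42, adjusted p = 0.0115; -0.02 after AMD3100) and, in the pooled comparison, under 4 of 25 alternatives: without the AMD3100 group (1.15, adjusted p = 0.019), without AMD3100 array 1 (0.86), with the intensity trend and robust prior (0.76) and with the mean of probes (0.74). The probe named Csf3r lies on another chromosome than the G-CSF receptor gene, so its value (-0.27 ± 0.13, adjusted p = 0.325) is uncertain. Ly6a gave 0.65 ± 0.21 (adjusted p = 0.154) in the mean of the blood groups. By treatment Ly6a gave 1.65 after G-CSF (adjusted p = 0.00855), 0.04 after AMD3100 and 0.24 after CWHM-823 with tGro-b. Of 25 integrins and partners, 1 passed in 9 of 9, the tetraspanin Cd9 (1 ± 0.15, adjusted p = 0.0126).

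Cd44, the hyaluronan receptor, depended on the probe. The most abundant of its 4 probes, which stands for the gene in every count here, gave -0.16 ± 0.15 (adjusted p = 0.618, lower in 6 of 9). The other 3 gave 1.55 ± 0.12, 1.91 ± 0.2 and 2.64 ± 0.21 (adjusted p = 0.000321, 0.0017 and 0.000375), each higher in 9 of 9. No single value is therefore given for the gene. Among the named genes that passed, 18 had more than 1 probe, and 0 of them had a probe of opposite sign. For Runx1, Myct1, Fan1, Cd48, Cdkn1a, Hmgcs1, Egln3, Dnaja1 and Hspa8, however, no probe beside the one used passed. A further Acrbp probe gave -0.32 (adjusted p = 0.36).

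Genes of mitosis stood lower in blood LSK cells. Ccna2, cyclin A2 of S and G2 phase, was at -0.22, -0.06 and -0.04 in marrow and at -3.39 to -0.64 in blood (median -1.72; probe at chr3:36463978-36464037). Marrow was 3.35-fold above blood (-1.74 ± 0.22, adjusted p = 0.00535), and no blood array reached the marrow range. Fbxo5, the EMI1 inhibitor of the anaphase-promoting complex, was at 0.35, 0.9 and 1.01 in marrow and at -1.12 to -0.05 in blood (-1.36 ± 0.2, adjusted p = 0.0094). Ccnf, cyclin F, was at -1.41, -1.49 and -1.66 in marrow and at -3.25 to -2.59 in blood (-1.35 ± 0.12, adjusted p = 0.000624). Every blood array lay under every marrow array for these 3 genes. Against marrow, Fbxo5 and Ccnf passed after each treatment, and Ccna2 did not pass after CWHM-823 with tGro-b (-1.4, adjusted p = 0.0535). Nusap1, which bundles spindle microtubules, was at 0.48, 1.22 and 1.09 in marrow and at -0.74 to -0.01 in blood (-1.3 ± 0.16, adjusted p = 0.00376). Spc25 of the kinetochore (-1.12 ± 0.22, adjusted p = 0.0363) and Psrc1 of the spindle (-1.08 ± 0.22, adjusted p = 0.0356) were lower by the same count of 9 of 9. Fbxo5 did not pass without marrow array 2, and Spc25 and Psrc1 did not pass without any 1 of the marrow arrays.

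Of 41 measured mitosis genes, 16 passed lower, 11 of them in 9 of 9, and 0 passed higher; the median was -0.92. Beside Nusap1 and Ccna2 these were the spindle checkpoint kinase gene Ttk (-1.53 ± 0.22, above background on 6 of 9 blood arrays), the midzone protein gene Prc1 (-1.26 ± 0.19), Kif20b (-1.59, above background on 6 of 9), Ube2c (-1.29), Top2a (-1.2, on 8 of 9), Aurka (-1.07), Incenp (-1.05), Foxm1 (-0.9) and Kif20a (-0.87). Cdk1 (-0.12, adjusted p = 0.875), Ccnb1 (-0.55, adjusted p = 0.199; its probe lies on another chromosome than the gene) and Mki67 (-0.5, adjusted p = 0.0932) did not pass, though Mki67 was lower in 9 of 9. The count of 11 fell to 3 without marrow array 2, to 4 without marrow array 3, to 5 without the slide block and to 7 with median scaling. Genes of DNA replication and repair moved less: of 38, 3 passed lower, 2 in 9 of 9, and the median was -0.21. Those 2 were the DNA glycosylase gene Neil3 (-2.2 ± 0.31, adjusted p = 0.0081, above background on 7 of 9 blood arrays) and Brca2 (-1.26 ± 0.23, adjusted p = 0.0258), and each failed without marrow array 1 or 2. Mcm2 (0.05, adjusted p = 0.926) and Pcna (-0.16, adjusted p = 0.717), which work at the replication fork, did not pass, and the probe of Pcna lies on another chromosome than the gene. Of 22 CDK inhibitor and quiescence genes, Btg2 (1.83 ± 0.34), Cdkn1a, which encodes p21 (1.02 ± 0.14), Cited2 (0.85 ± 0.15) and Tob1 (0.85) rose, and Txnip (-1.01 ± 0.15) fell, in 9 of 9; without marrow array 1, 2 or 3 the 4 were 0, 1 and 1, without CWHM-823+tGro-b array 2 there was 1, and without the G-CSF group 0. A second, dimmer probe of Cdkn1a gave 0.09 (adjusted p = 0.884, higher in 4 of 9), and the gene did not pass with the mean of its probes. Cdkn1b (0.19, adjusted p = 0.54) and Cdkn1c (-1.01, adjusted p = 0.152) did not pass.

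Transcription factors of stem cells went both ways. Hoxa3 was at -0.01, -0.63 and -1.59 in marrow and at -2.41 to -1.89 in blood (-1.4 ± 0.25, adjusted p = 0.0221), with a wide spread among marrow arrays. It did not pass without marrow array 1, marrow array 2, CWHM-823+tGro-b array 1, or the whole G-CSF or CWHM-823+tGro-b group. Of 34 stem cell transcription factors and self-renewal genes, 5 fell and 3 rose in 9 of 9, and the median was -0.33. Those that fell were Hlf, a factor of long-lived stem cells, from 2.69, 2.33 and 1.97 to between 0.96 and 1.89 (-1.01 ± 0.13, adjusted p = 0.00628), Mycn (-1.33 ± 0.18, adjusted p = 0.00645), Prdm16 (-1.13, adjusted p = 0.00949), Hoxa9 (-0.76, adjusted p = 0.0233) and Mllt3 (-0.79, adjusted p = 0.0182). For Hlf every blood array was under every marrow array. Those that rose were Runx1, a core factor of blood formation, from -0.29, -1.05 and -1.07 to between -0.04 and 0.86 (1.29 ± 0.17, adjusted p = 0.00667), Myct1 (0.98 ± 0.11, adjusted p = 0.00276) and Egr1, which is also an immediate early gene. A second Runx1 probe gave 0.13 (adjusted p = 0.691, higher in 5 of 9), and a second Myct1 probe 0.5 (adjusted p = 0.0865, higher in 5 of 9). Gata2 (-0.35, adjusted p = 0.187), Meis1 (-0.39, adjusted p = 0.169), Tal1 (-0.47, adjusted p = 0.0913), Bmi1 (0.08, adjusted p = 0.753) and Hoxb4 (-0.16, adjusted p = 0.831) did not pass. The 5 that fell were 1 when marrow array 1 or array 2 was left out, and 9 when array 3 was. In the fit with no slide block they were 2, and the 3 that rose were 0. Of 29 surface markers, 1 rose and 2 fell in 9 of 9, among them Cd48 (0.8 ± 0.15, adjusted p = 0.0256) and Epor, the erythropoietin receptor gene (-1.04 ± 0.22, adjusted p = 0.0406). Cd34 (0.24, adjusted p = 0.337), Slamf1 (-0.92, adjusted p = 0.0587) and Flt3 (-0.45, adjusted p = 0.195) did not pass. On bulk arrays, fewer cells of a type and less RNA per cell cannot be told apart.

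Several lower genes belonged to none of these lists. Golga1, a Golgi golgin, was at -0.56, -0.84 and -1.58 in marrow and at -3.12 to -1.59 in blood (-1.36 ± 0.23, adjusted p = 0.0187). Acrbp, known from the sperm acrosome and from platelets, was at 2.49, 1.52 and 0.8 in marrow and at 0.16 to 0.73 in blood (-1.17 ± 0.24, adjusted p = 0.0369). Plekhh1 was at 1.36, 1.38 and 1.39 in marrow, a narrow range, and at -0.27 to 0.59 in blood (-1.14 ± 0.14, adjusted p = 0.00378). Elp6 of the Elongator complex (-1.35 ± 0.25), Inka1, an inhibitor of PAK4 (-1.23 ± 0.15), and the DNA repair nuclease gene Fan1 (-1.08 ± 0.16) also fell. The probes named Vmn1r151, Vmn1r139 and Vmn1r131 (-1.1, -1.15 and -1.07) belong to a family of near-identical vomeronasal receptor genes on chromosome 7, so the transcript they measure is uncertain. H2-Aa, a chain of MHC class II, was at 0.14, 0.89 and 1.31 in marrow and at -4.23 to -0.04 in blood (-3.01 ± 0.44, adjusted p = 0.0101). It was above background on 8 of 9 blood arrays and did not pass without marrow array 2 or 3. Of 14 MHC class II genes it was the 1 that passed. Gcsam and Sema5a, above background on 3 marrow arrays and 0 blood arrays, were at least 2.23-fold and 1.31-fold lower. H2-Aa failed without the G-CSF group as well.

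In the mean of the blood groups, 0 of 41 oxidative phosphorylation genes passed, with a median of 0.22. The median was 0.62 after G-CSF, -0.2 after AMD3100 and 0.28 after CWHM-823 with tGro-b. Over all genes tested these medians were -0.25, 0.11 and -0.05. Of the 41 genes, 36 (87.8%) passed limma's F-test among the blood groups, against 53.4% of all genes tested. In the pooled comparison 0 of 31 ribosome biogenesis and MYC targets (median 0.11) and 0 of 36 interferon response genes (median 0.03) passed as well. The lower and upper quartiles of all genes tested were -0.26 and 0.16. Of 31 cholesterol and fatty acid synthesis genes, 3 rose in 9 of 9 (median 0.41), among them Hmgcs1 (1 ± 0.14) and Fdps (0.8 ± 0.16), though the probe of Fdps lies on another chromosome than its gene. A second, dimmer probe of Hmgcs1 gave 0.16 (adjusted p = 0.771, higher in 4 of 9), and the gene did not pass with the mean of its probes. Without the AMD3100 group the 3 were 9, and without the G-CSF group or without the slide block they were 0. The glucose transporter gene Slc2a3 (1.44 ± 0.14, adjusted p = 0.00103), the glucocorticoid-induced kinase gene Sgk1 (3.11 ± 0.22, adjusted p = 0.00015, 2 of 3 marrow arrays above background) and the clock gene Per2 (1.25 ± 0.13, adjusted p = 0.00152) rose. The metallothionein gene Mt2 fell (-1.77 ± 0.34, adjusted p = 0.0295, above background on 8 of 9 blood arrays). Of 17 p53 targets 4 rose in 9 of 9 with a list median of 0.01, among them Pmaip1, the BH3-only protein NOXA (2.06 ± 0.2), and the polo-like kinase gene Plk3, above background on 0 marrow and 8 blood arrays and given no fold. The 4 were 1 without the G-CSF group and 2 without marrow array 1, with normexp and with the authors' table.

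**Figure D4:**
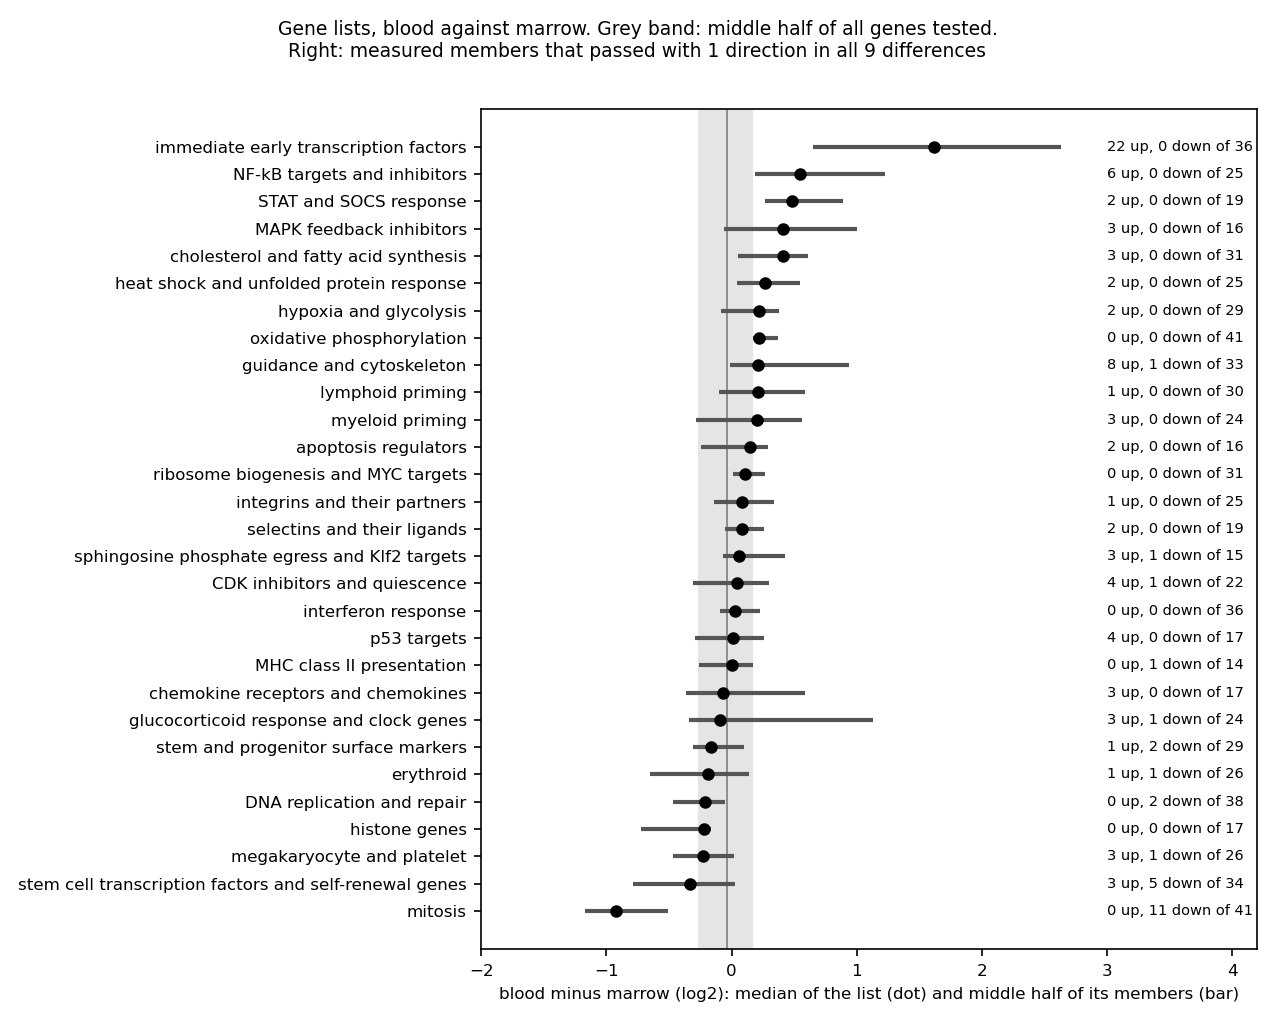
Median log2 difference of blood from marrow for 29 gene lists (dots) with the range between the quartiles of each list's measured members (bars); the grey band is the range between the quartiles of all 23795 genes tested. Immediate early genes (1.62) and mitosis genes (-0.92) lie farthest from it, and the text at right counts members that passed in 1 direction in all 9.

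Some shared changes fell in genes of other cell types. Of 11 mast cell and basophil markers, Gzmb, Hdc and Cpa3 rose in 9 of 9 (median 0.38). Hdc, which makes histamine, was at -3.44, -2.6 and -3.2 in marrow and at -1.16 to 1.27 in blood (3.08 ± 0.36, adjusted p = 0.00356), and Cpa3, a mast cell carboxypeptidase, rose by 1.63 ± 0.14 (adjusted p = 0.000542). The summed signal of the 11 was 7.45 to 8.07 in marrow and 8.51 to 17.7 in blood, with 6 to 9 of them above background in marrow and 9 to 11 in blood. Mcpt8 (1.05, adjusted p = 0.339), Fcer1a (adjusted p = 0.152, above background on 0 marrow and 5 blood arrays), Tpsab1 (-1.06, adjusted p = 0.188) and Tpsb2 (-0.17, adjusted p = 0.641), which define mature basophils and mast cells, did not pass. Of 8 red cell markers, 3 passed higher, 1 of them in 9 of 9, and the median was 1.35. That 1, Hba-a2, an alpha globin gene, was at -1.19, -1.35 and -0.32 in marrow and at -0.21 to 4.33 in blood (3.42 ± 0.31, adjusted p = 0.000694). Its rise was 3.94 after G-CSF, 1.41 after AMD3100 and 4.89 after CWHM-823 with tGro-b. Hba-a1, a near-identical copy, rose by 3.02 ± 0.28 (adjusted p = 0.000819, higher in 8 of 9), and the probes may not tell the copies apart. The beta globin gene Hbb-bt passed and was above background on 0 marrow and 6 blood arrays. Alas2 (0.8, adjusted p = 0.211) and Slc4a1 (-0.02, adjusted p = 0.967) did not pass. No neutrophil marker of 10 passed in this comparison (median -0.93, with marrow array 3 high). The part of such cells or of their free RNA in the results was not tested.

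The size of the shared changes differed among the treatments. An F-test among the 3 blood groups passed for 12711 genes (53.4% of those tested) and for 281 of the 534 shared genes (52.6%), a share near the background. This count was 2832 (11.9%) without the slide block, and 7089, 7342 and 7604 without AMD3100 array 1, G-CSF array 1 and G-CSF array 3. Against marrow, 4647 genes (19.5%) passed after G-CSF, 3215 (13.5%) after AMD3100 and 257 (1.08%) after CWHM-823 with tGro-b; these comparisons share the marrow arrays. Of these, 1961 (8.24%) were higher and 2686 (11.3%) lower after G-CSF, 1384 (5.82%) and 1831 (7.69%) after AMD3100, and 183 (0.769%) and 74 (0.311%) after CWHM-823 with tGro-b. The median difference over all genes tested was itself -0.25 after G-CSF, 0.11 after AMD3100 and -0.05 after CWHM-823 with tGro-b. Counts by direction and F-test counts include any such shift of the whole array, whose cause was not tested. Among the 245 shared higher genes, AMD3100 gave the smallest difference of the 3 treatments for 151, G-CSF for 48 and CWHM-823 with tGro-b for 46, and the median differences were 1.01, 1.4 and 1.2. Among the 289 shared lower genes the medians were -1.12, -1.02 and -0.9. Shared genes passed in the mean of the blood groups and need not have passed after each treatment. Since 74 genes in all passed lower after CWHM-823 with tGro-b, most of the 289 did not pass there.

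Among shared genes that differed by at least 1 and were above background on all 12 arrays, the most even increase was that of Runx1, with 1.35 after G-CSF, 1.24 after AMD3100 and 1.29 after CWHM-823 with tGro-b (F-test adjusted p = 0.895). Next came Gtf2h4, a subunit of the transcription factor TFIIH (1.16, 0.95 and 1.2), Prkab1, a subunit of the energy sensor AMPK (1.22, 0.96 and 1.09), and Ccrl2, an atypical chemokine receptor (1.36, 1.1 and 1.27). Bcl2l11, the BH3-only protein BIM, gave 1.2, 1.12 and 1.42. Runx1 and Prkab1 did not pass without the slide block, and Bcl2l11 did not pass without marrow array 1. The even rise of Runx1 is that of 1 probe, since its second probe did not pass (0.13, adjusted p = 0.691). The gaps were wide elsewhere. Selp, the adhesion receptor P-selectin, rose by 4.95 after G-CSF, 1.53 after AMD3100 and 1.38 after CWHM-823 with tGro-b (F-test adjusted p = 0.000316), and Col18a1, which encodes collagen XVIII, by 4.67, 1.55 and 1.09. Both were above every marrow array on every blood array all the same. Pmaip1 (4.02, 0.84 and 1.32) and Anxa2 (3.43, 0.82 and 0.82) had the same order of G-CSF over the others, and neither passed without the G-CSF group. Against marrow, Anxa2 did not pass after AMD3100 (adjusted p = 0.0642) or after CWHM-823 with tGro-b (adjusted p = 0.221). Nr4a3 had the reverse order, its blood levels running from -4.38 to 0.51 with those after CWHM-823 with tGro-b the highest (F-test adjusted p = 0.000144). Among lower genes, Igf2r, the cation-independent mannose-6-phosphate receptor, gave -2.85 after G-CSF, -1.38 after AMD3100 and -0.33 after CWHM-823 with tGro-b, and Slit2 -2.11, -1.69 and -0.38. Neither passed against marrow after CWHM-823 with tGro-b (adjusted p = 0.688 for Igf2r and 0.549 for Slit2).

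**Figure D5:**
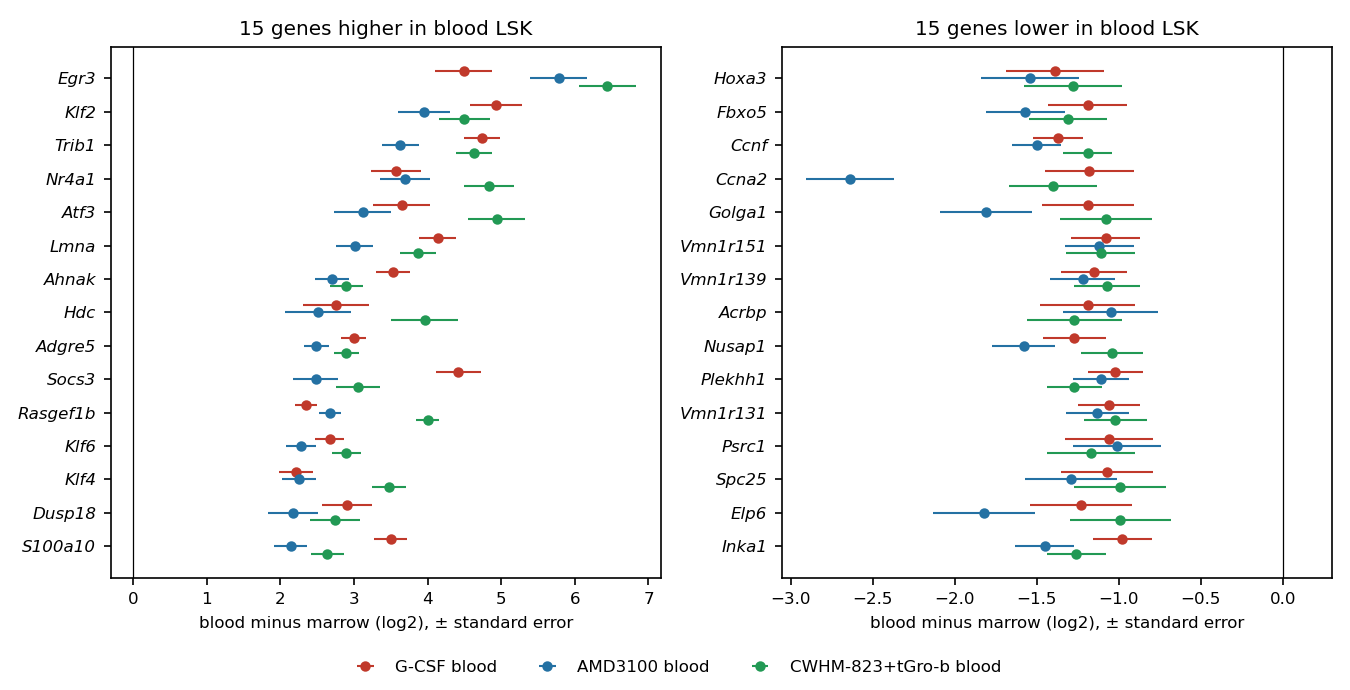
Blood minus marrow difference (horizontal axis, log2) after each treatment for the 15 higher and 15 lower genes whose smallest treatment difference was largest; bars are standard errors of the fit with the slide as a block. All 3 treatments lie on 1 side of 0 for each gene, and Egr3 ranges from 4.49 after G-CSF to 6.44 after CWHM-823 with tGro-b.

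Of 110 named genes 101 passed, and all 101 kept their direction in each alternative in which they were fitted. All 101 came from genes with 1 direction in all 9 differences, so the kept direction is no further support. Of these, 45 passed in every such alternative, and 54 passed with any 1 array left out. The 15 leading increases, from Egr3 to S100a10, were all among the 45. Of the 15 leading decreases, Ccnf, Ccna2, Nusap1 and Plekhh1 were. Other calls were lost when single arrays or groups were left out. Golga1, Acrbp, Elp6, Fan1, Igf2r, Cd9 and the 3 vomeronasal receptor probes did not pass without marrow array 1, nor without marrow array 2. Cd48, Epor, Brca2, Mt2, Btg2, Gtf2h4 and Ccrl2 did not pass without any 1 of the 3 marrow arrays. Hlf, Ttk, Gcsam, Txnip and Cdkn1a did not pass without marrow array 1, Mycn and Ccl4 without array 2, Prc1 without array 2 or 3, and Sema5a without array 1 or 3. Leaving out single blood arrays, each in turn, ended the call of Acrbp and Epor for 7 of the 9 arrays, of Ccl4 and Gtf2h4 for 6, of Ccrl2 and Spc25 for 5, of Psrc1 for 4, of Elp6, Cd48, Brca2 and Mt2 for 3, of Sema5a for 2 and of Btg2 for 1. Golga1, Acrbp, Elp6, Igf2r, Cd9, Cd48, Epor, Mt2, Btg2, Gtf2h4, Ccrl2, Hlf, Gcsam, Cdkn1a, Ccl4 and Sema5a did not pass without the G-CSF group. Inka1 and Myct1 did not pass without the slide block.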

How the data were processed

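Per the labels, RNA of LSK cells was amplified (WTA2), labelled with Cy5 and hybridised to Agilent arrays, 4 groups of 3 arrays on 3 slides. The deposited files hold scanner intensity, background-subtracted by Agilent Feature Extraction 11.5.1.1 per the submitters' processing notes. The authors' deposited table of log2 values (30354 probes, r = 0.998 to 1 with the processed signal) was an alternative.

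Control spots were left out, and each array's log2 processed signal was taken relative to its 75th percentile. Of 39429 probes, 29497 were kept after a filter on dim probes and on missing arrays. The most abundant probe stood for each of 23795 genes. limma 3.58.1 in R 4.3.3 was fitted to all 12 arrays with the slide as a block, with Benjamini-Hochberg adjustment across the whole table (threshold 0.05). Gene names were updated for 28330 probes by accession. The number of arrays limits the precision.

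Slide numbers pair the samples: deviations from group means correlated at 0.26 to 0.616 in 18 same-slide pairs and at -0.446 to 0.0367 in 36 others. Deviations within a group cancel out, so positive values within slides push the other pairs toward negative ones. The other pairs therefore add no separate evidence of pairing.

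Named genes were the 15 each way with the largest smallest treatment difference, 5 bounds each way, 5 even and 5 unequal genes each way, up to 4 members a list, and the mobilizers' targets; other list members are named as examples, chosen after their values were seen. The members and lists were chosen with earlier results of these data known. In simulated data of 23795 genes for this comparison, 56% of genes changed by 1 (log2) and 86% of those changed by 2 were recovered, and 3.4% of calls were false. Each changed gene was shifted equally in all 3 blood groups, and no gene differed among the treatments, unlike in the data. Recovery was scored by the adjusted p and the sign of the mean difference, without the rule of 1 direction. These shares therefore do not carry over to the 534 shared genes. Results for some genes are not reported here.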

Additional observations from a re-analysis of the deposited data

Results flagged for a closer look

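Among 9 blood arrays, Gtf2h4 had its lowest value on AMD3100 blood array 2, separated from the next by 0.549 of the whole range, and Inka1 its highest on G-CSF blood array 1, separated by 0.514 of the range. Chance sets about 1 in 20 such groups apart.

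The difference from marrow varied among the 3 treatments, by the F-test of the difference, for 53.4% of all genes tested. Given here are the 5 higher and 5 lower shared genes, above background on all 12 arrays, with the smallest p in that test; other genes had larger gaps, such as Hba-a2 (3.49). The gap between the largest and smallest treatment difference (log2) was 3.58 for Col18a1, 3.57 for Selp, 3.18 for Pmaip1 and 2.61 for Anxa2, all highest after G-CSF. It was 1.66 for Rasgef1b, highest after CWHM-823 with tGro-b. Among lower genes it was 2.52 for Igf2r and 1.73 for Slit2, lowest after G-CSF, and 1.38 for Mccc2, 1.2 for S1pr4 and 1.08 for Nsmf, lowest after AMD3100. Igf2r and Slit2 did not pass against marrow after CWHM-823 with tGro-b (adjusted p = 0.688 and 0.549). Mccc2 (pooled -0.67, adjusted p = 0.0447) gave -0.12 after G-CSF (adjusted p = 0.602) and did not pass in 20 of 25 alternatives, and Nsmf (-0.58, adjusted p = 0.0489) gave -0.21 (adjusted p = 0.309) and did not pass in 19. S1pr4 did not pass without the AMD3100 group.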

How the results depend on the processing

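As reported, 317 higher and 352 lower genes passed, 245 and 289 of them with 1 direction throughout. Without the slide as a replicate block these were 133 and 50, and 115 and 49, and the F-test among blood groups passed for 2832 genes. Median scaling gave 204 lower genes (158 with 1 direction), normexp 229, the authors' table gave 199 (176) and no filter on dim probes 213 (185). An intensity trend with a robust prior gave 564 higher and 548 lower. A minimum difference of 1 gave 183 and 177, with 148 and 144 of 1 direction. Without the G-CSF group 144 and 128 passed (138 and 118), without the AMD3100 group 649 and 558 (587 and 528), and without the CWHM-823+tGro-b group 199 and 184 (174 lower of 1 direction). With 1 array left out, passed genes ran from 123 to 318 higher and from 44 to 367 lower, those of 1 direction from 116 to 263 and from 43 to 297, and F-test calls from 7089 to 12700. The cause of these shifts was not tested, other than that fewer arrays entered some fits. With 1 array left out, Cxcr2 ran from -0.02 (marrow array 1) to 0.43, Itga4 from -0.17 to 0.03 (marrow array 2) and S1pr1 from -0.03 (marrow array 3) to 0.14. Signs also turned for genes that had not passed: Itga4 gave 0 with median scaling, 0.11 with the mean of probes and 0.02 without the AMD3100 group. Cd44 gave 1.49 with the mean of probes and S1pr1 -0.26 without the G-CSF group. Probes above background on no array of a group have only a bound.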
